A study of Mus musculus with 12 samples.

Results

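The set described here holds 10 genes for metabolic nuclear receptors, a related sensor and a coactivator, namely Ppara, Pparg, Nr1i2, Nr1i3, Nr1h3, Rxra, Esrra, Thrb, Ahr and Ppargc1a. They were chosen for these roles and taken by symbol from the 47069 genes of the deposited expression table. Each of the 10 symbols was listed 1 time. Polyadenylated RNA was sequenced from mice at postnatal day 14 in 12 libraries, 3 in each of 4 groups. The groups were isolated hepatocytes of wild type (WT) mice, isolated hepatocytes of Cdk1 Liv-/- mice, whole liver of WT mice and whole liver of Cdk1 Liv-/- mice. In Cdk1 Liv-/- mice, Cre recombinase under the Albumin promoter deletes floxed Cdk1, so the deletion is directed to cells of the hepatocyte lineage, and whole liver also holds cells that keep the gene. Values are FPKM, read counts scaled for transcript length and for the total reads of a library, so that levels of different genes can be set side by side. The study's methods give 3 or more biological replicates for its experiments in general. The labels do not say from which animals these libraries came, or whether the 2 compartments shared animals, so p-values measure the spread between these libraries.

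Nuclear receptors are transcription factors whose activity is set by small lipophilic ligands. Ppara encodes the fatty acid receptor PPAR-alpha, which drives fatty acid oxidation in liver, and Pparg encodes PPAR-gamma, the regulator of fat storage. Nr1i2 (PXR) and Nr1i3 (CAR) sense foreign compounds, Nr1h3 (LXR-alpha) senses oxysterols, and Thrb is the main thyroid hormone receptor of liver. Rxra encodes the partner with which these receptors bind DNA as heterodimers. Esrra encodes ERR-alpha, an orphan receptor that controls mitochondrial genes together with the coactivator PGC-1-alpha, the product of Ppargc1a. Ahr is a ligand-activated factor of another protein family that binds DNA with Arnt and takes part in the response to foreign compounds.

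The targeted gene was checked first. Cdk1 (ENSMUSG00000019942) was at 27.9, 20.4 and 28.2 FPKM in the WT hepatocyte libraries and at 9.68, 11.8 and 6.87 FPKM in the Cdk1 Liv-/- ones. In whole liver it was at 25.3, 22.7 and 21.5 FPKM in WT and at 11.7, 12.1 and 14.2 FPKM in Cdk1 Liv-/- libraries. All Cdk1 Liv-/- libraries were below all WT libraries in both compartments, and limma gave log2 fold changes of -1.40 with a standard error of 0.22 (adjusted p = 0.0148) and -0.85 with a standard error of 0.10 (adjusted p = 0.00353). These values cover the whole gene, so transcripts without the deleted part still count.

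2 libraries stood apart. Whole liver Cdk1 Liv-/- replicate 3 had 158 FPKM of Xist, the RNA of the inactive X chromosome, and 0 FPKM of Kdm5d, Uty, Eif2s3y and Ddx3y, which lie on the Y chromosome. In the other 11 libraries Xist was at 0.14 FPKM or less and Ddx3y lay between 14.3 and 22.7 FPKM, so this library carries the expression of a female while the study's methods describe males. WT hepatocyte replicate 3 had more RNA of other liver cells than the other WT hepatocyte libraries. The summed FPKM of 12 Kupffer cell and macrophage markers was 692 there against 376 and 205, and that of 10 erythroid markers was 583 against 148 and 109. For Cdk1 the log2 fold change was -1.32 (adjusted p = 0.0516) without WT hepatocyte replicate 3 and -0.93 (adjusted p = 0.00798) without the whole liver library with Xist.

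Depth was read from the smallest steps of FPKM in short genes with 1 transcript. 1 FPKM on 1 kb of transcript stood for between 34.6 and 49.9 reads in the 12 libraries. The weakest value among the 10 genes, 1.35 FPKM of Ppargc1a in whole liver Cdk1 Liv-/- replicate 2, thus rested on about 63.9 reads per kb of transcript, and all other genes on more.

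The 10 genes spanned a wide range of levels. In WT whole liver, Nr1i3 was highest at 81.6 ± 7.51 FPKM (SD, n = 3), followed by Rxra at 66.1 ± 2.57, Nr1h3 at 47.7 ± 0.413, Nr1i2 at 26.7 ± 1.67 and Ppara at 21.7 ± 1.68 FPKM. Lower levels were found for Esrra (13.0 ± 0.297 FPKM), Ahr (11.3 ± 0.525 FPKM), Pparg (6.86 ± 0.590 FPKM), Thrb (4.30 ± 0.390 FPKM) and Ppargc1a (2.47 ± 0.757 FPKM). Libraries of genes next to each other in this order did not overlap. In Cdk1 Liv-/- whole liver the order changed in its middle, where Esrra, Pparg, Ahr and Ppara followed each other at 12.5 ± 0.516, 11.1 ± 3.05, 10.7 ± 1.69 and 8.56 ± 3.08 FPKM and each overlapped its neighbour. Nr1i3 and Rxra overlapped there as well. In hepatocytes, Nr1i3, Rxra and Nr1h3 were also the 3 highest in both genotypes and Ppargc1a the lowest. Ppara overlapped both of its neighbours in each, Nr1h3 and Nr1i2 in WT and Nr1i2 and Ahr in Cdk1 Liv-/- hepatocytes.

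The spread between replicates differed strongly between the genes. Nr1h3 had a coefficient of variation of 0.866% to 5.73% in the 4 groups, the lowest of the 10 genes in each but Cdk1 Liv-/- hepatocytes, where Thrb was at 3.65%. Ppara ranged from 7.76% in WT whole liver to 69.5% in Cdk1 Liv-/- hepatocytes, where its libraries were at 6.43, 27.2 and 40.5 FPKM, a 6.31-fold range. In WT hepatocytes, Ppara, Ahr and Thrb were each highest in replicate 1 and lowest in replicate 3. Hepatocyte changes of these genes therefore had wide intervals.

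**Figure D1:**
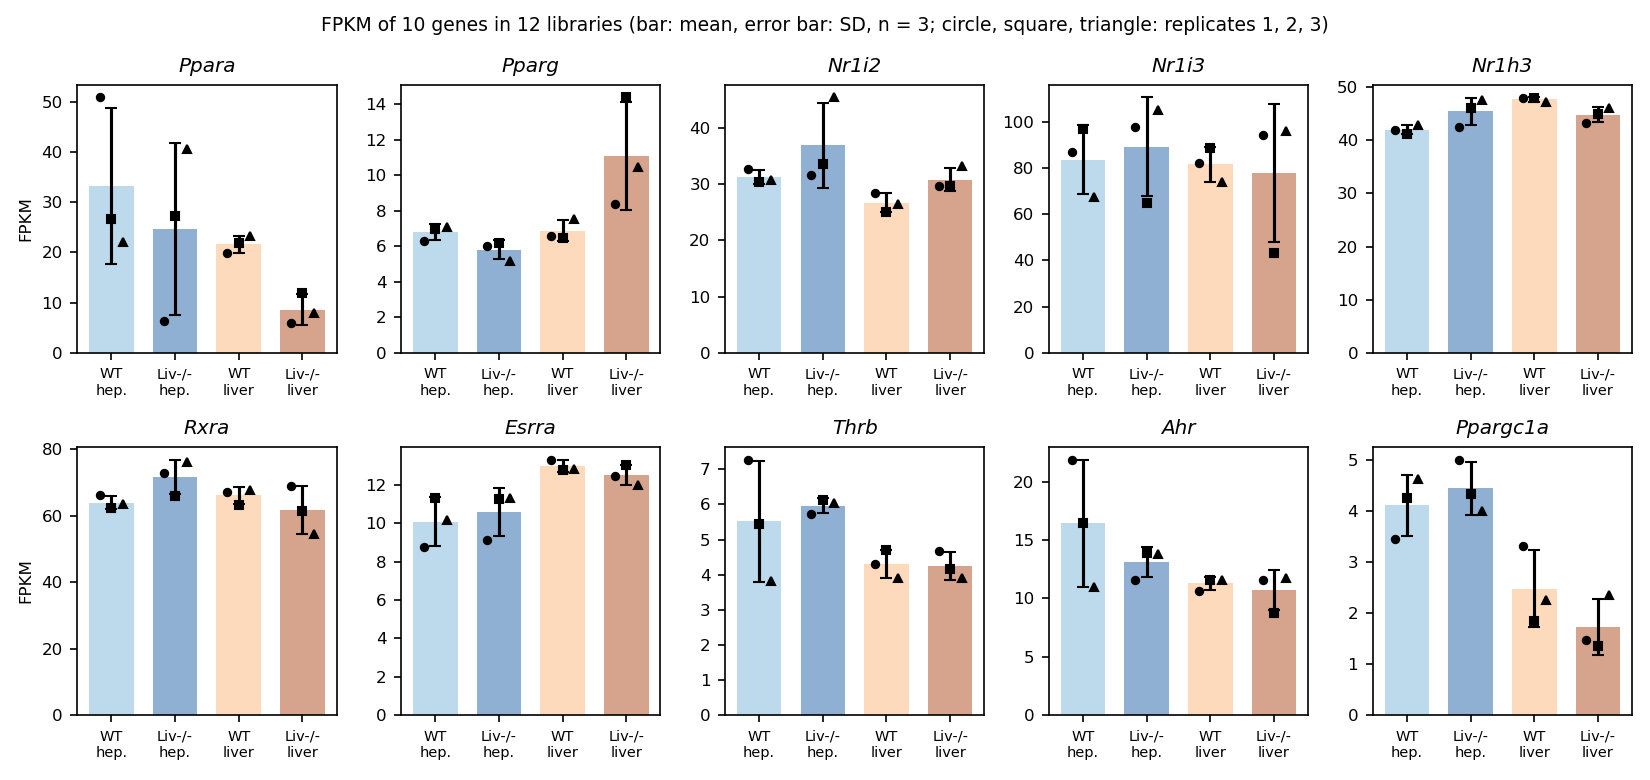
FPKM of the 10 genes in each of the 12 libraries, 1 panel per gene, with bars for the mean, error bars for the SD (n = 3) and symbols for replicates 1 to 3. Ppara in whole liver and Pparg in whole liver separate the genotypes, while most other panels show overlapping libraries.

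Ppara, Pparg and Nr1i2 were the genes of the set whose levels differed with genotype in whole liver, and the sequences before their start sites are shown to set base composition and motifs beside those changes. RefSeq on GRCm38.p6, the same build as mm10, gave the 250 bases before the start for 9 of the 10 genes (none was found for Ahr), in 14 windows because several genes have more than 1 start. Only stretches outside annotated exons are printed. Both strands were searched for the nuclear receptor half-site AGGTCA, its direct repeats AGGTCANAGGTCA and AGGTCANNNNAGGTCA, which contain the half-site, and the core of the Ahr and Arnt site, GCGTG. Capitals mark matches to any of these.
Ppara, chr15:85735714-85735775, plus strand: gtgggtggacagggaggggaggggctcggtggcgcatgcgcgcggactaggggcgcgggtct
Pparg, first start, chr6:115360894-115360950, plus strand: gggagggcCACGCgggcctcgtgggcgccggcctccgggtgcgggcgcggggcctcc
Pparg, last start, chr6:115421816-115422065, plus strand: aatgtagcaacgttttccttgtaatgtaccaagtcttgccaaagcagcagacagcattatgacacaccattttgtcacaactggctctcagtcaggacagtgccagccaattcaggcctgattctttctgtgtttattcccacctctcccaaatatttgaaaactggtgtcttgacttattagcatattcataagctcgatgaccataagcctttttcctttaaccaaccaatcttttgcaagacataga
Nr1i2, chr16:38294825-38295074, minus strand: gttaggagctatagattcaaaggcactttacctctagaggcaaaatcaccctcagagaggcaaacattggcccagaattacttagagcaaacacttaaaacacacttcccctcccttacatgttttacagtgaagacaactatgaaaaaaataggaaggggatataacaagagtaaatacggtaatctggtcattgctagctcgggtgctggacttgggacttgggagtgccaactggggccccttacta

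The windows of Ppara and of the first Pparg start were rich in G and C (76.4% and 82.4% of 250 bases), while those of the last Pparg start and of Nr1i2 were not (40.8% and 44.0%). Pparg has 3 starts, and the window of the middle one (chr6:115362099-115362348) is not printed. It had 63.6% G and C and 1 half-site. FPKM are given per gene, so the use of the Pparg starts could not be told apart. The half-site was found in 4 of the 14 windows (of Pparg, Rxra and Thrb) and in 14.02% of the 32851 windows of all genes. The Ahr and Arnt core was found in 4 of the 14 (of Ppara, Pparg, Esrra and Thrb), a share close to the 28.2% of all windows. Neither direct repeat was in any of the 14 windows, and they were in 0.0335% and 0.0152% of all windows. The core of Ppara, the half-sites of Pparg and 1 of the 2 cores of its first start lie outside the printed stretches. A match is a run of letters and not a binding site.

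The first comparison asked how the receptors differed between Cdk1 Liv-/- and WT whole liver. Ppara fell, and Pparg and Nr1i2 rose, at an adjusted p of at most 0.1. This threshold, with Benjamini-Hochberg adjustment over the 17386 genes with a mean of at least 0.1 FPKM, was used for all tests, and fold changes are on the scale of log2(FPKM + 0.5), which understates changes of low genes. All 10 genes passed the filter on low values. 2 of 10 were higher, where 38.0% of all tested genes were higher, and 1 of 10 was lower, where 7.53% of all tested genes were lower. The count of higher genes was thus below the share in the whole table and the count of lower genes close to it. The median log2 fold change was -0.09 over the 10 genes and 0.18 over all genes tested.

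Ppara (ENSMUSG00000022383, chr15:85734983-85802819, plus strand) was at 19.9, 21.9 and 23.2 FPKM in WT whole liver and at 5.85, 11.9 and 7.92 FPKM in Cdk1 Liv-/- whole liver. Every Cdk1 Liv-/- library was below every WT library, and even the highest of them was well under the lowest WT value. This was a 2.54-fold fall, or -1.34 on the log2 scale with a standard error of 0.24 (adjusted p = 0.0113). Without the library with Xist it was -1.32 (adjusted p = 0.0407). In 1 fit of all 12 libraries, where the wide spread of hepatocytes enters the error, the adjusted p was 0.101, the highest of all alternatives, which started at 0.00455.

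Pparg (ENSMUSG00000000440, chr6:115360951-115490399, plus strand) was at 6.56, 6.48 and 7.54 FPKM in WT whole liver and at 8.38, 14.4 and 10.4 FPKM in Cdk1 Liv-/- whole liver. The groups did not overlap, but replicate 1 of Cdk1 Liv-/- lay close to the highest WT library. On the log2 scale the rise was 0.62 with a standard error of 0.19 (adjusted p = 0.0524). Without the library with Xist it was 0.65 and did not pass (adjusted p = 0.110), and it also did not pass without WT replicate 1 (0.59, adjusted p = 0.144) or WT replicate 2 (0.59, adjusted p = 0.136). The adjusted p lay between 0.0181 and 0.208 under the alternatives.

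Nr1i2 (ENSMUSG00000022809, chr16:38248323-38294824, minus strand) was at 28.4, 25.1 and 26.5 FPKM in WT whole liver and at 29.7, 29.6 and 33.2 FPKM in Cdk1 Liv-/- whole liver. The gap between the groups was narrow. Its log2 fold change of 0.20, with a standard error of 0.07 (adjusted p = 0.0775), was about the size of the median over all genes. It did not pass without the library with Xist (0.15, adjusted p = 0.181), without WT replicate 2 (0.16, adjusted p = 0.192) or without WT replicate 3 (0.20, adjusted p = 0.163).

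Scaling bears directly on these values, since FPKM were not normalized between libraries by the authors and most genes that passed in whole liver were higher. Median-ratio size factors moved the median log2 fold change of all genes from 0.18 to 0.01 and the share of higher genes among those that passed from 83.5% to 52.2%. Relative to that shift, Ppara fell further, with a log2 fold change of -1.55 (adjusted p = 0.00868). Pparg was at 0.41 (adjusted p = 0.161) and Nr1i2 at -0.02 (adjusted p = 0.913), so neither passed and the sign of Nr1i2 turned. With size factors, Nr1h3 (-0.31, adjusted p = 0.00708), Esrra (-0.27, adjusted p = 0.0205) and Rxra (-0.32, adjusted p = 0.0718) were lower past the threshold. As deposited, their log2 fold changes were -0.09, -0.05 and -0.10 and none passed. In this setting 4 of the 10 genes were lower and 0 higher, where 2849 and 3106 of all 17404 tested genes were. As deposited, 1310 were lower and 6610 higher of 17386. In hepatocytes the counts over all genes with size factors were 1410 lower and 1706 higher. List counts with size factors below are to be read beside these. With 1 library left out, 1157 to 1622 of all genes were higher and 402 to 1224 lower in hepatocytes. In whole liver 4509 to 6190 were then higher and 859 to 1296 lower. List counts with 1 library left out below are to be read beside these ranges. Scaling every library to the same sum moved values the other way, with a median of 0.21, and Ppara (-1.31, adjusted p = 0.0111), Pparg (0.66, adjusted p = 0.0421) and Nr1i2 (0.24, adjusted p = 0.0404) passed. Of the 10 genes in whole liver, Ppara alone passed as deposited and under both of these scalings with the same direction.

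**Figure D2:**
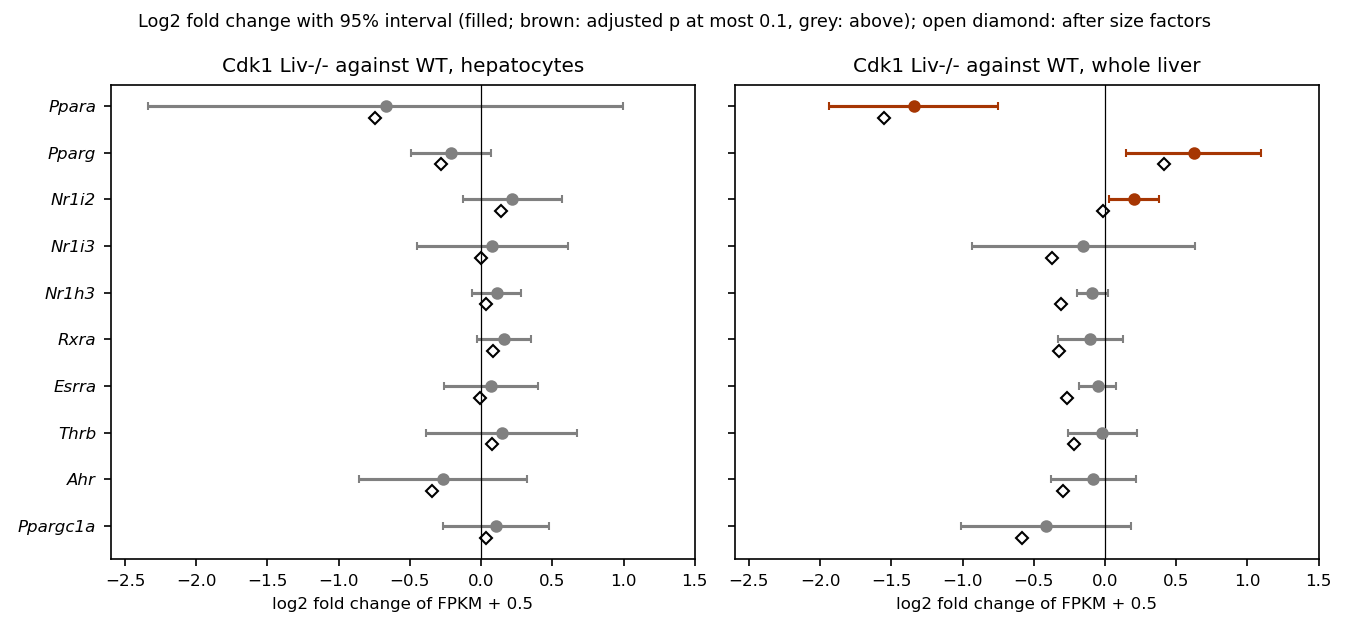
Log2 fold change of FPKM + 0.5, Cdk1 Liv-/- against WT, for the 10 genes in hepatocytes and whole liver, with 95% intervals, brown where the adjusted p was at most 0.1, and open diamonds for values after median-ratio size factors. In whole liver the diamonds of all 10 genes lie to the left of the filled points, and that of Nr1i2 lies near 0.

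The other genes did not pass by limma in whole liver as deposited. Nr1h3 was at 47.2 to 48.0 FPKM in WT and at 43.3 to 46.1 FPKM in Cdk1 Liv-/- libraries, which did not overlap, and its small log2 fold change of -0.09 (adjusted p = 0.165) passed in a two-sample test with q-values (q = 0.0303). Ppargc1a was at 3.31, 1.84 and 2.26 FPKM in WT and at 1.47, 1.35 and 2.35 FPKM in Cdk1 Liv-/- libraries, a log2 fold change of -0.41 with a 95% interval of -1.01 to 0.18. Nr1i3 was at 94.2, 43.3 and 96.1 FPKM in Cdk1 Liv-/- whole liver, so replicate 2 alone lay far below the WT range of 73.8 to 88.8 FPKM. Its log2 fold change was -0.15 and turned to 0.22 without that replicate. Thrb and Ahr, the receptors of thyroid hormone and of aryl hydrocarbons, had log2 fold changes of -0.02 (95% interval -0.26 to 0.22) and -0.08 (95% interval -0.38 to 0.22).

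In isolated hepatocytes, none of the 10 genes passed in limma, either higher (12.1% of all tested genes) or lower (6.61%). At an unadjusted p below 0.05, for which the share of all genes is not given here, the count was also 0. The two-sample test with q-values gave 0 as well, where 2565 higher and 1394 lower of all 17386 tested genes passed. Rxra came nearest, at 66.2, 62.2 and 63.5 FPKM in WT and 72.7, 66.0 and 76.3 FPKM in Cdk1 Liv-/- hepatocytes, with a log2 fold change of 0.16 (95% interval -0.03 to 0.35, adjusted p = 0.232). The median log2 fold change was 0.09 over the 10 genes and 0.05 over all genes.

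Ppara in hepatocytes was at 51.0, 26.7 and 22.1 FPKM in WT and at 6.43, 27.2 and 40.5 FPKM in Cdk1 Liv-/- libraries. The groups overlapped across most of their range. The log2 fold change of -0.67 had a 95% interval of -2.34 to 1.00, which includes both the whole liver value and no change, and it turned to 0.09 without Cdk1 Liv-/- replicate 1. Pparg was at 6.27, 6.98 and 7.10 FPKM in WT and at 6.01, 6.19 and 5.19 FPKM in Cdk1 Liv-/- hepatocytes, all 3 just below WT, with a log2 fold change of -0.21 (95% interval -0.49 to 0.07, adjusted p = 0.284). Without WT replicate 3, the hepatocyte library with more RNA of other cells, the adjusted p of the 10 genes again stayed above 0.1.

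Whether a change differed between the compartments was tested with an interaction term in a fit of all 12 libraries. 1 of 10 genes passed, where 9.85% of all tested genes did. This was Pparg, whose log2 fold change in hepatocytes was lower than that in whole liver by a difference of -0.83 (standard error 0.23, adjusted p = 0.0734). The difference stayed negative without both libraries that stood apart (-0.83), an alternative chosen after seeing the data, but no longer passed (adjusted p = 0.175), and leaving out 1 library at a time gave values of -1.01 to -0.64 with adjusted p of 0.0579 to 0.171. Of these 12 settings it passed in 3, those without replicate 2 of WT hepatocytes, without replicate 2 of Cdk1 Liv-/- hepatocytes and without replicate 1 of Cdk1 Liv-/- whole liver, and with size factors it was -0.70 (adjusted p = 0.120), while the interaction of Nr1h3 passed instead (0.34, adjusted p = 0.0669). For Ppara the difference was 0.67 with a 95% interval of -1.05 to 2.40 (adjusted p = 0.651), so its fall in whole liver was not shown to differ from its change in hepatocytes.

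Between WT hepatocytes and WT whole liver, none of the 10 genes passed in limma, and 1.52% of all tested genes did. At an unadjusted p below 0.05 there were 4, a limit for which the share of all genes is not given here. The two-sample test with q-values gave 1, where 30 higher and 313 lower of all 17386 tested genes passed. Ppargc1a was at 3.45, 4.25 and 4.61 FPKM in hepatocytes, all above the whole liver values, with a log2 difference of 0.65 (hepatocytes minus whole liver, adjusted p = 0.197). Nr1i2 was also higher in every hepatocyte library (0.22, adjusted p = 0.18), while Nr1h3 (-0.18, adjusted p = 0.141) and Esrra (-0.36, adjusted p = 0.170) were lower in every one. The share of all genes whose libraries separated in this way is not given here. Without WT hepatocyte replicate 3, Nr1h3 (-0.19, adjusted p = 0.0664) and Ahr (0.73, adjusted p = 0.0510) passed, but so did 413 higher and 2656 lower genes of the whole table, against 18 and 247 with all libraries. These became 1 and 0 without WT hepatocyte replicate 1 and 3 and 4 without replicate 2. Without WT whole liver replicates 1, 2 and 3 in turn they were 2 and 31, 1 and 5, and 8 and 57.

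Markers of other cell types moved with genotype in whole liver. In bulk tissue, fewer cells of a type and less RNA per cell cannot be told apart. Over all tested genes 38.0% were higher and 7.53% lower there. Of 12 stellate cell markers 8 were higher and none lower in Cdk1 Liv-/- whole liver, and their summed FPKM was 482, 478 and 561 in WT and 975, 1224 and 914 in Cdk1 Liv-/- libraries, with Col3a1 the most abundant. Of 12 Kupffer cell and macrophage markers 4 were higher and 1 lower, summing to 542, 597 and 603 FPKM in WT and 689, 946 and 719 FPKM in Cdk1 Liv-/- libraries, with Cd5l the most abundant over the 12 libraries, though not in WT whole liver. Of 11 markers of monocytes and neutrophils 8 were higher and none lower, summing to 76.8, 48.0 and 73.4 FPKM in WT and 98.9, 329 and 269 FPKM in Cdk1 Liv-/- libraries, with S100a9 leading. Replicate 2 of Cdk1 Liv-/- whole liver had the highest sum of each of these lists and also the highest Pparg. Within its group it had the highest Ppara and Esrra as well, and the lowest Nr1i2, Nr1i3, Ahr and Ppargc1a. No marker of these 3 lists was listed at 0 in whole liver. With size factors 8 stellate cell markers, 6 of monocytes and neutrophils and 2 of Kupffer cells and macrophages were higher, where 3106 of all 17404 genes were. Without the library with Xist these counts were 8, 2 and 4. The markers of monocytes and neutrophils that were higher were 2 without WT replicate 1 or 2, 4 without WT replicate 3 and 3 without Cdk1 Liv-/- replicate 2. Those of Kupffer cells and macrophages were 2 without WT replicate 1 or 2, and none was lower with any 1 library but the one with Xist left out. Their part in the changes of Ppara, Pparg and Nr1i2 was not tested.

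Hepatocyte markers moved as well. Of 14 markers 9 were lower and none higher in Cdk1 Liv-/- whole liver, where 7.53% and 38.0% of all genes were, and the sum, led by Alb, was 90790, 88309 and 91644 FPKM in WT and 69098, 62940 and 67834 FPKM in Cdk1 Liv-/- libraries. In hepatocytes 2 were higher and 2 lower (12.1% and 6.61% of all genes), with sums of 86592, 96132 and 91327 FPKM in WT and 63057, 63962 and 59603 FPKM in Cdk1 Liv-/- libraries. Alb made up most of each sum but did not pass by limma in whole liver (-0.37, adjusted p = 0.242) or hepatocytes (-0.56, adjusted p = 0.376). The markers higher in hepatocytes were 0 or 1 with any 1 library left out (0 without replicate 2 or 3 of WT or replicate 3 of Cdk1 Liv-/-), and 1 was lower without replicate 1 or 2 of WT. The lower ones there were 5 with equal sums, with the filter at 1 FPKM and without trend, 6 in the two-sample test and in 1 fit of all 12 libraries, 1 with the fold change limit and 0 with no filter. The higher ones were 1 with size factors and without trend, and 0 with no filter and with each of the stricter limits. The fall of Ppara in whole liver thus stood beside lower hepatocyte markers, and its dependence on them was not tested.

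In isolated hepatocytes, RNA of other cells was present in both genotypes. Over all tested genes 12.1% were higher and 6.61% lower in hepatocytes, against 38.0% and 7.53% in whole liver. Of 11 sinusoidal endothelial markers 10 were lower in Cdk1 Liv-/- hepatocytes, all but Stab1 (adjusted p = 0.145), the most abundant over the 12 libraries. There they summed to 84.0, 53.8 and 63.8 FPKM against 175, 119 and 337 FPKM in WT. In whole liver 2 of them were higher, with sums of 165, 192 and 233 FPKM in WT and 209, 264 and 215 FPKM in Cdk1 Liv-/- libraries. Of 12 Kupffer cell and macrophage markers 2 were lower in Cdk1 Liv-/- hepatocytes (229, 171 and 150 FPKM in sum). Cholangiocyte markers, led by Spp1, were higher for 4 of 6 tested genes in both compartments. They summed to 29.2, 24.0 and 38.8 FPKM in WT and 73.7, 132 and 109 FPKM in Cdk1 Liv-/- hepatocytes, and to 70.8, 75.2 and 57.3 FPKM in WT and 283, 151 and 272 FPKM in Cdk1 Liv-/- whole liver. Between 0 and 2 of these 8 markers were listed at 0 in a library. Of 9 tested erythroid markers, led by Hbb-bs, 3 were lower in whole liver and 2 in hepatocytes, and of 12 lymphocyte markers, led by Ighm, 2 and 6 were lower. With size factors no endothelial marker passed in whole liver, 2 cholangiocyte markers were higher and 1 lower there, and 6 Kupffer cell and macrophage markers were lower in hepatocytes, where 7 were lower with the filter at 1 FPKM, 10 in 1 fit of all 12 libraries and 0 in the two-sample test. The lower endothelial markers in hepatocytes were 9 without WT replicate 3, but 3 without WT replicate 1 or Cdk1 Liv-/- replicate 2 or 3 and 6 without Cdk1 Liv-/- replicate 1. The lower Kupffer cell and macrophage markers there were 11 without WT replicate 2 and 0 with any other library left out. The higher cholangiocyte markers in whole liver were 2 without replicate 1 or 3 of WT, replicate 1 of Cdk1 Liv-/- or the library with Xist, and those in hepatocytes were 3 with any 1 library left out. The higher endothelial markers in whole liver were 0 without WT replicate 1 or the library with Xist and 1 without WT replicate 2 or Cdk1 Liv-/- replicate 1 or 2. In hepatocytes 1 erythroid marker was lower with any 1 library but Cdk1 Liv-/- replicate 2 left out, and 5 in 1 fit of all 12 libraries. In whole liver no erythroid marker was higher by limma with all libraries, but 2 were without WT replicate 3 and 1 without Cdk1 Liv-/- replicate 1. The lower lymphocyte markers in whole liver were 0 without WT replicate 1 or 2 or the library with Xist and 1 without WT replicate 3 or Cdk1 Liv-/- replicate 1. In hepatocytes they were 2 without WT replicate 1 or Cdk1 Liv-/- replicate 2 or 3 and 3 without Cdk1 Liv-/- replicate 1. The part of these cells in the values of the 10 genes was not tested.

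**Figure D3:**
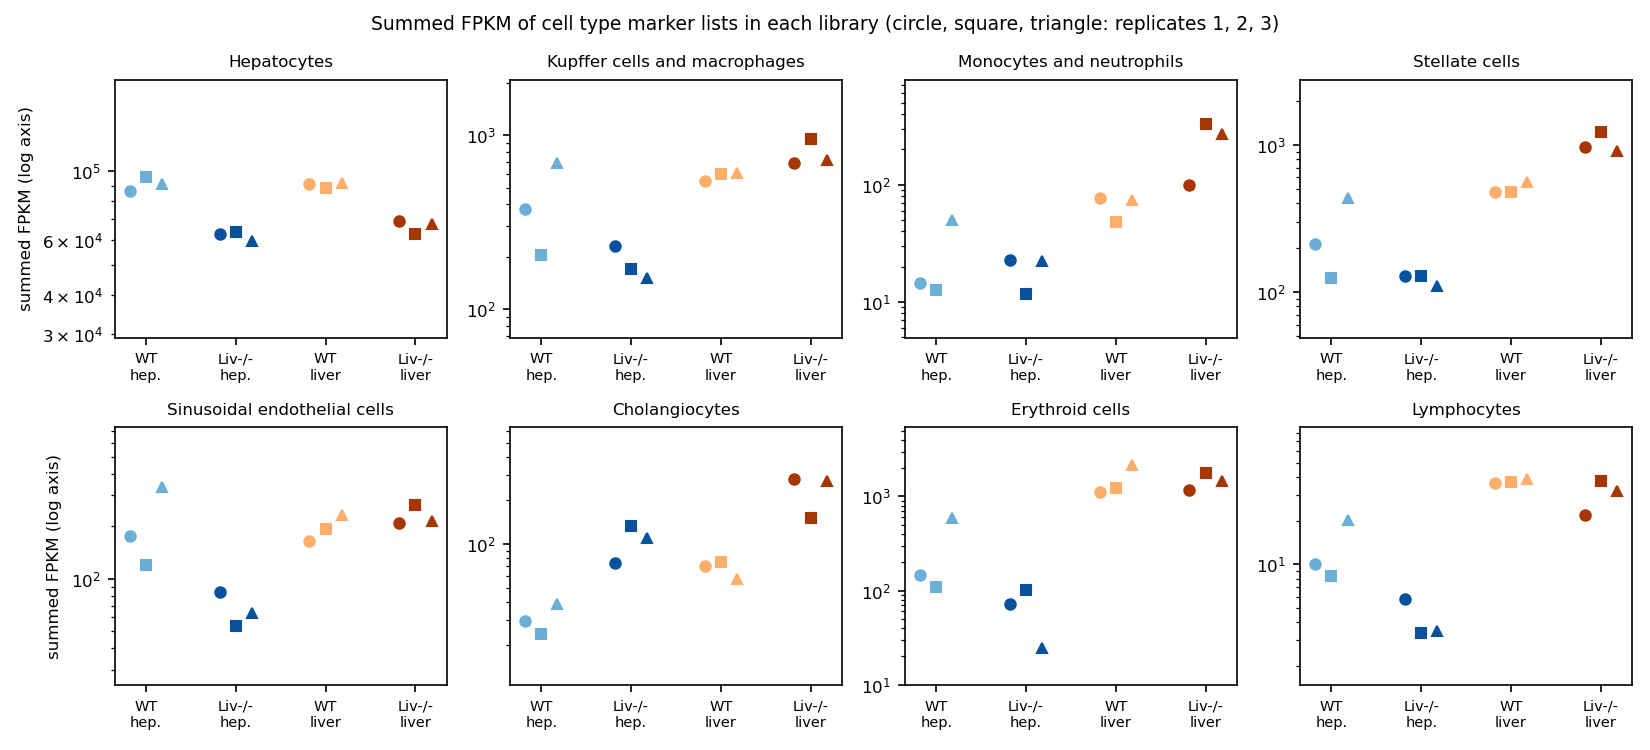
Summed FPKM of 8 lists of cell type markers in each library on log axes, with a symbol for each replicate. WT hepatocyte replicate 3, the triangle, is the highest WT hepatocyte library in every panel but that of hepatocytes, and stellate cell markers are highest in Cdk1 Liv-/- whole liver.

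Other nuclear receptors were set beside the 10 genes. Of a list of 49 receptor genes 39 were tested, 8 of them from the set, and 10 were below the filter. In whole liver 9 of the 39 were higher and 7 lower, where 38.0% and 7.53% of all genes were. The median log2 fold change was -0.00 against 0.18 over all genes. With size factors 3 were higher and 14 lower, where 3106 and 2849 of all 17404 tested genes were. Nr4a1, an immediate early orphan receptor, rose from 1.25 ± 0.335 to 3.42 ± 1.37 FPKM (SD, n = 3 per group), and its log2 fold change of 1.12 passed (adjusted p = 0.0291 by limma). Esrrg, a relative of Esrra, fell from 0.897 ± 0.286 to 0.423 ± 0.199 FPKM, by 0.60 on the log2 scale (adjusted p = 0.0812). Ppara had the largest fall of the family. Without the library with Xist 7 receptors were higher and 3 lower, 5 were higher without WT replicate 1, and 3 and 4 were lower without WT replicates 2 and 3. Of all genes 5479 were higher and 992 lower without the library with Xist. Without WT replicate 1, 4509 of all genes were higher, and without WT replicates 2 and 3, 877 and 1138 were lower.

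In hepatocytes 3 of the 39 receptors were higher and 3 lower, none of them from the set, where 12.1% and 6.61% of all genes were. With size factors 1 was higher and 4 were lower, where 1706 and 1410 of all 17404 tested genes were. Nr1d1, the circadian repressor REV-ERB-alpha, rose from 4.70 ± 1.34 to 13.5 ± 2.56 FPKM, a log2 fold change of 1.45 (adjusted p = 0.0160). Hnf4a, a regulator of hepatocyte identity, had a log2 fold change of 0.45 (adjusted p = 0.0875). Nr1h5, a gene related to the bile acid receptor, fell from 2.53 ± 1.55 to 0.403 ± 0.0208 FPKM (adjusted p = 0.0680), and Rarb, a retinoic acid receptor, had a log2 fold change of -0.64 (adjusted p = 0.0706). With 1 library left out, 1 was higher in each case but without Cdk1 Liv-/- replicate 2, and none was lower without replicate 1 or 3 of either genotype.

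**Figure D4:**
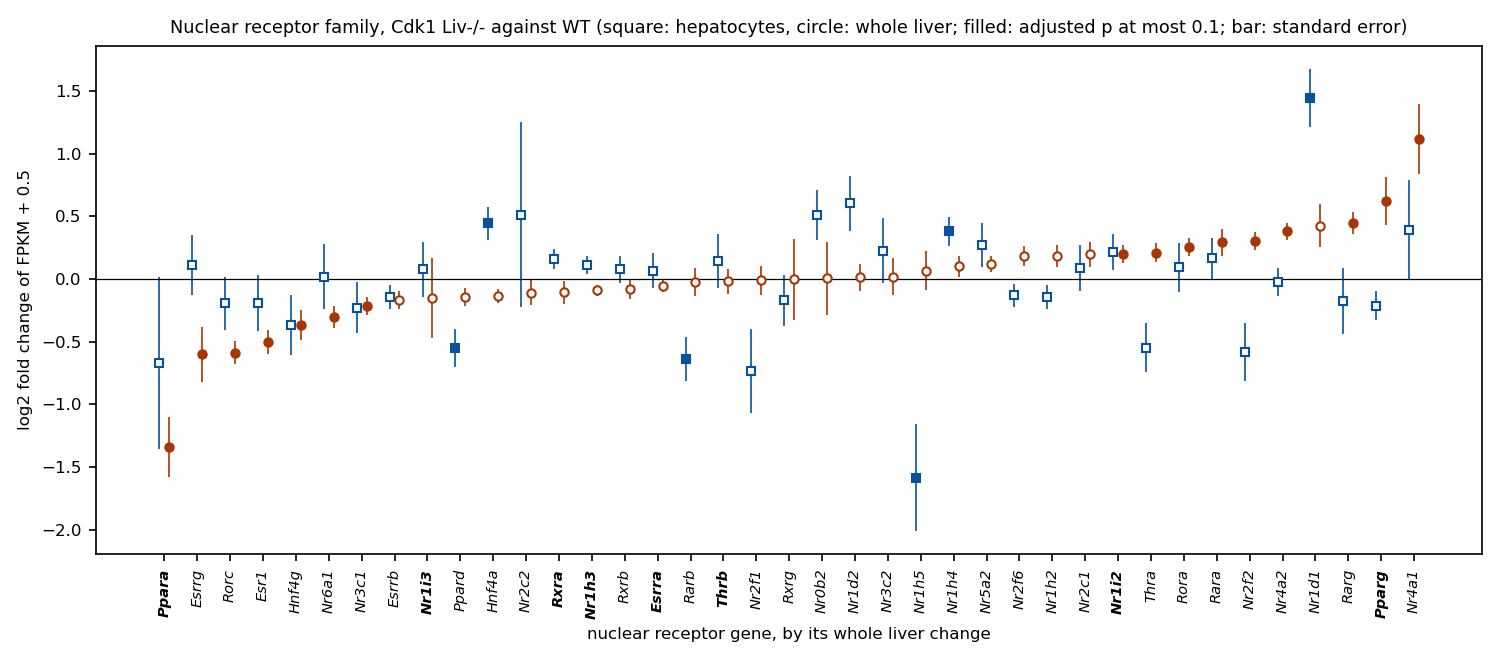
Log2 fold changes, Cdk1 Liv-/- against WT, of the 39 tested nuclear receptor genes in hepatocytes and whole liver, squares for hepatocytes, circles for whole liver, filled where the adjusted p was at most 0.1, bars for the standard error and the genes of the set in bold. The genes stand in the order of their whole liver change, from Ppara at the low end to Nr4a1 at the high end.

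Coregulators and the partners of Ahr were counted next. Of 29 tested genes 11 were higher and 1 lower in whole liver, where 38.0% and 7.53% of all genes were. With size factors 2 were higher and 1 lower, where 3106 and 2849 of all 17404 tested genes were. As deposited, the higher ones were 4 without WT replicate 1 or 3 and 6 without WT replicate 2. Tbl1xr1, an exchange factor for corepressors, rose from 3.82 ± 0.246 to 6.17 ± 0.128 FPKM (log2 fold change 0.63, adjusted p = 0.00309), and Pprc1, a relative of Ppargc1a, had a log2 fold change of 0.64 (adjusted p = 0.0130). Ppargc1b, the other close relative of Ppargc1a, fell from 0.743 ± 0.0945 to 0.363 ± 0.0929 FPKM, by 0.53 on the log2 scale (adjusted p = 0.0168). In hepatocytes 3 were higher (1 without WT replicate 1 or 2) and none lower in limma, where 12.1% and 6.61% of all genes were. Lpin1, a phosphatidate phosphatase that also acts as a coactivator, rose from 12.9 ± 1.48 to 35.2 ± 18.4 FPKM (adjusted p = 0.0971). Arnt2 passed at very low levels, 0.0167 ± 0.00577 against 0.257 ± 0.00577 FPKM, so its fold change depends on the pseudocount.

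Known targets of each receptor were then counted, which gives levels of their RNA and not the activity of a receptor. Lists overlap, since 22 of 271 symbols are on more than 1. Target genes in families of near-identical copies, such as Cyp3a41a, Cyp4a32, Acot1, Acot3, Ces2c, Sult2a1, Gsta1 and Gsta2, may share reads with their relatives and are uncertain as single genes.

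PPAR-alpha targets passed in both directions. Of 45 tested targets 19 were higher and 6 lower in Cdk1 Liv-/- whole liver, where 38.0% and 7.53% of all genes were. The median log2 fold change was 0.24 against 0.18 over all genes. With size factors 9 were higher and 9 lower, where 3106 and 2849 of all 17404 tested genes were. As deposited, the higher ones were 11 without WT replicate 1, and the lower ones 3 without any 1 of the WT replicates. Vnn1, a pantetheinase, rose from 6.91 ± 1.19 to 26.0 ± 3.15 FPKM (log2 fold change 1.84, adjusted p = 0.00115), and Acot1, an acyl-CoA thioesterase, rose by 1.69 on the log2 scale (adjusted p = 0.0130). Acsl1, which activates fatty acids, fell from 195 ± 13.1 to 131 ± 13.1 FPKM (log2 fold change -0.57, adjusted p = 0.00858), and Cyp4a32, an omega-hydroxylase, had a log2 fold change of -0.92 (adjusted p = 0.0624). In hepatocytes 6 targets were higher and 11 lower, where 12.1% and 6.61% of all genes were, with a median of 0.01 against 0.05. These counts were 2 and 5 without WT replicate 1 or 2, 2 were higher without Cdk1 Liv-/- replicate 1, and 2 were higher and 6 lower without Cdk1 Liv-/- replicate 3. Acot1 and Vnn1 rose there as well, by 1.63 and 1.48 on the log2 scale (adjusted p = 0.0625 and 0.0646), while Cyp4a32 and Acot3 were lower (-1.37 and -0.77, adjusted p = 0.0589 and 0.0386). Between the compartments, the interaction passed for 6 of 45 targets, all with a lower log2 fold change in hepatocytes, and for 9.85% of all genes. Of all genes that passed, 1303 also had a lower log2 fold change in hepatocytes and 409 a higher one. With size factors these were 492 and 548, and the targets were not counted in that setting. Without the libraries that stood apart 14 targets were higher and 4 lower in whole liver, where 5479 and 992 of all genes were. In hepatocytes 4 targets were then higher and 8 lower, where 1497 and 763 of all genes were.

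Among 12 tested targets of PPAR-gamma 7 were higher and 1 lower in whole liver (median log2 fold change 0.67 against 0.18), and 6 were higher and 1 lower in hepatocytes (0.86 against 0.05), where Pparg itself did not pass. Of all genes, 38.0% were higher and 7.53% lower in whole liver, and 12.1% higher and 6.61% lower in hepatocytes. With size factors the counts were 5 and 1 in whole liver and 6 and 1 in hepatocytes. Over all 17404 tested genes they were 3106 and 2849 in whole liver and 1706 and 1410 in hepatocytes. Cidec, a protein of the lipid droplet, rose from 0.427 ± 0.230 to 6.88 ± 3.51 FPKM in whole liver (log2 fold change 2.91, adjusted p = 0.00523) and from 0.457 ± 0.0862 to 2.67 ± 1.33 FPKM in hepatocytes (1.63, adjusted p = 0.0344). Scd1, the stearoyl-CoA desaturase, rose from 6.32 ± 1.90 to 19.4 ± 1.99 FPKM in whole liver (1.58, adjusted p = 0.00541) and from 5.91 ± 1.95 to 73.0 ± 42.9 FPKM in hepatocytes (3.39, adjusted p = 0.00905). Lpl, the lipoprotein lipase, fell in both, from 200 ± 8.69 to 97.5 ± 1.40 FPKM in whole liver and from 217 ± 13.6 to 125 ± 16.5 FPKM in hepatocytes. Without WT hepatocyte replicate 1 only 1 of the 12 was higher in hepatocytes, where 1157 of all genes were, against 2108 with all libraries. In whole liver 4 of the 12 were higher without WT replicate 1, WT replicate 2 or the library with Xist. Of all genes 4509, 5396 and 5479 were higher in these settings, against 6610 with all libraries.

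Targets of CAR and PXR, the products of Nr1i3 and Nr1i2, split in both directions. Of 38 targets 14 were higher and 13 lower in whole liver and 12 were higher and 7 lower in hepatocytes, while 7.53% and 6.61% of all genes were lower and 38.0% and 12.1% higher. Aldh1a1, a retinaldehyde dehydrogenase, rose from 18.2 ± 2.00 to 112 ± 29.5 FPKM in whole liver (log2 fold change 2.55, adjusted p = 0.00143). Slco1a4, an organic anion transporter, fell from 64.2 ± 7.70 to 12.6 ± 4.36 FPKM in whole liver (-2.35, adjusted p = 0.00271) and from 61.4 ± 16.5 to 21.2 ± 3.32 FPKM in hepatocytes (-1.49, adjusted p = 0.0127). Cyp3a41a, a cytochrome P450, was higher in both (2.49 and 3.54, adjusted p = 0.0615 and 0.000409), although its libraries in Cdk1 Liv-/- whole liver spread widely, at 32.6 ± 30.7 FPKM. Ces2c, a carboxylesterase, rose from 0.683 ± 0.115 to 12.8 ± 2.57 FPKM in hepatocytes. Sult2a1, a sulfotransferase, was lower in both (-2.96 and -1.95, adjusted p = 0.00146 and 0.0539). With size factors there were 11 higher and 15 lower in whole liver, where 3106 and 2849 of all 17404 tested genes were. In hepatocytes there were 11 higher and 7 lower with size factors, where 1706 and 1410 of all genes were. As deposited, the lower ones there became 2 without WT replicate 1 and 3 without WT replicate 2 or Cdk1 Liv-/- replicate 3.

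Of 28 targets of LXR-alpha, the product of Nr1h3, with Nr1h3 itself among them, 7 were higher and 6 lower in whole liver and 5 were higher and 4 lower in hepatocytes. Over all genes 38.0% and 7.53% were higher and lower in whole liver and 12.1% and 6.61% in hepatocytes. Elovl6, a fatty acid elongase, rose from 0.610 ± 0.0917 to 3.43 ± 0.506 FPKM in whole liver (log2 fold change 1.82, adjusted p = 0.000733) and from 0.523 ± 0.0416 to 7.94 ± 3.68 FPKM in hepatocytes (2.96, adjusted p = 0.00447). Abcg5 and Abcg8, which form the sterol transporter of the canalicular membrane, fell in whole liver from 113 ± 5.75 to 43.2 ± 12.3 FPKM and from 71.0 ± 2.60 to 27.3 ± 7.79 FPKM (-1.41 and -1.40, adjusted p = 0.00657 and 0.00529). Mylip, which degrades the LDL receptor, fell in hepatocytes from 5.0 ± 2.23 to 1.55 ± 0.465 FPKM (-1.37, adjusted p = 0.0560). With size factors 4 were higher and 11 lower in whole liver, where 3106 and 2849 of all 17404 tested genes were. In hepatocytes 3 were higher and 4 lower with size factors, where 1706 and 1410 of all genes were. Without WT hepatocyte replicate 3 there were 2 higher and 3 lower in hepatocytes. There, 3 were higher without replicate 1 or 2 of WT or replicate 1 of Cdk1 Liv-/-, 2 without replicate 3 of Cdk1 Liv-/-, and 2 were lower without replicate 1 of WT.

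Of 18 tested Ahr targets 9 were higher and 3 lower in whole liver and 8 were higher and 1 lower in hepatocytes. Their median log2 fold changes were 0.45 and 0.43, against 0.18 and 0.05 over all genes. Ahr itself did not pass. Over all genes 38.0% and 7.53% were higher and lower in whole liver and 12.1% and 6.61% in hepatocytes. Gsta1, a glutathione transferase, rose from 0.0467 ± 0.00577 to 2.23 ± 0.0702 FPKM in whole liver (log2 fold change 2.32, adjusted p = 8.68e-05) and from 0.0767 ± 0.10 to 4.97 ± 2.02 FPKM in hepatocytes (3.19, adjusted p = 0.00333). Gsta2, a near copy of it, rose in hepatocytes by 2.35 on the log2 scale (adjusted p = 0.0179), and Ugdh, which makes UDP-glucuronate, rose in whole liver by 1.49 (adjusted p = 0.00728). Cyp1a2, a typical Ahr target of liver, was lower in whole liver (-2.05, adjusted p = 0.0989). Cyp1b1 and Tiparp, also on the list, were higher there (1.09 and 0.46, adjusted p = 0.0150 and 0.0362), and Cyp1a1 did not pass. In hepatocytes none of Cyp1a2, Cyp1b1, Tiparp and Cyp1a1 passed by limma (adjusted p = 0.117, 0.864, 0.109 and 0.495). With size factors 7 targets were higher and 6 lower in whole liver, where 3106 and 2849 of all 17404 tested genes were. As deposited, 5 were lower there without Cdk1 Liv-/- replicate 2. In hepatocytes 2 were lower without replicate 2 or 3 of WT or replicate 3 of Cdk1 Liv-/-.

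Of 22 targets of thyroid hormone receptors, which include the product of Thrb, 3 were higher and 6 lower in whole liver and 7 were higher and 3 lower in hepatocytes. The shares of all genes were 38.0% and 7.53% in whole liver and 12.1% and 6.61% in hepatocytes. Thrsp, a lipogenic protein, rose from 2.97 ± 1.58 to 19.5 ± 1.06 FPKM in hepatocytes (log2 fold change 2.66, adjusted p = 0.0109) and was at 2.00 ± 1.08 and 1.81 ± 1.64 FPKM in whole liver, and the interaction passed (adjusted p = 0.0637). Slc16a10, an amino acid transporter, also rose in hepatocytes, from 5.40 ± 0.898 to 12.6 ± 1.00 FPKM (1.16, adjusted p = 0.00694), with an interaction of 1.47 (adjusted p = 0.0127). Spp2 and Nrp1 were lower in hepatocytes (-0.98 and -0.78, adjusted p = 0.00193 and 0.0348). In whole liver Hr and Bcl3 were higher (1.15 and 1.14, adjusted p = 0.000814 and 0.00684). Dio1, a deiodinase of thyroid hormone, fell from 87.9 ± 11.5 to 51.0 ± 4.45 FPKM (-0.78, adjusted p = 0.00674), and Cyp7a1, the first enzyme of bile acid synthesis, was lower (-0.67, adjusted p = 0.0592). In hepatocytes Cyp7a1 rose from 17.7 ± 4.04 to 40.6 ± 12.2 FPKM (1.16, adjusted p = 0.0435), and its interaction passed (1.83, adjusted p = 0.0415). With size factors 2 were higher and 10 lower in whole liver, where 3106 and 2849 of all 17404 tested genes were. As deposited, the lower ones there were 2 without WT replicate 1 or 2 and 3 without Cdk1 Liv-/- replicate 2. In hepatocytes 5 were lower without Cdk1 Liv-/- replicate 2.

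Targets of ERR-alpha and PGC-1-alpha, most of them genes of the respiratory chain and the citrate cycle, were often lower in whole liver. Of 44 tested targets, Esrra among them, 2 were higher and 26 lower, where 38.0% and 7.53% of all genes were, and the median log2 fold change was -0.26 against 0.18. The falls were small, and the lowest were those of Esrrg and of Ppargc1b, which are regulators themselves. Pdk4, a kinase that restrains pyruvate oxidation, and Fndc5, a membrane protein, rose (1.19 and 0.68, adjusted p = 0.0828 and 0.00553). Leaving out 1 library at a time gave 22 to 25 lower. With size factors 31 were lower and 1 higher, where 2849 and 3106 of all 17404 tested genes were. In hepatocytes 7 were lower and 1 higher, where 6.61% and 12.1% of all genes were, with a median of -0.16 against 0.05, and with size factors 7 and 0. Acadvl, an acyl-CoA dehydrogenase, fell from 213 ± 13.0 to 151 ± 9.55 FPKM (-0.49, adjusted p = 0.0187), Sdhd, a subunit of succinate dehydrogenase, from 203 ± 9.24 to 154 ± 19.0 FPKM (-0.40, adjusted p = 0.0601), and Fh1, the fumarase, rose from 103 ± 5.45 to 142 ± 20.4 FPKM (0.45, adjusted p = 0.0633). The hepatocyte count of lower targets was 11 without Cdk1 Liv-/- replicate 1, 3 without WT replicate 3 and 1 with any other library left out. The 1 higher target there became 2 without Cdk1 Liv-/- replicate 3 and 0 with any other library left out, and the 2 in whole liver became 1 without WT replicate 1 or 2 or the library with Xist. The interaction passed for 2 of 44, where 9.85% of all genes passed, so for the other 42 a difference between the compartments was not shown. In whole liver 9 of 14 hepatocyte markers were lower as well (median log2 fold change -0.56), and markers of stellate cells and of monocytes and neutrophils were often higher. The part of cell composition in the counts of this and the other lists was not tested.

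**Figure D5:**
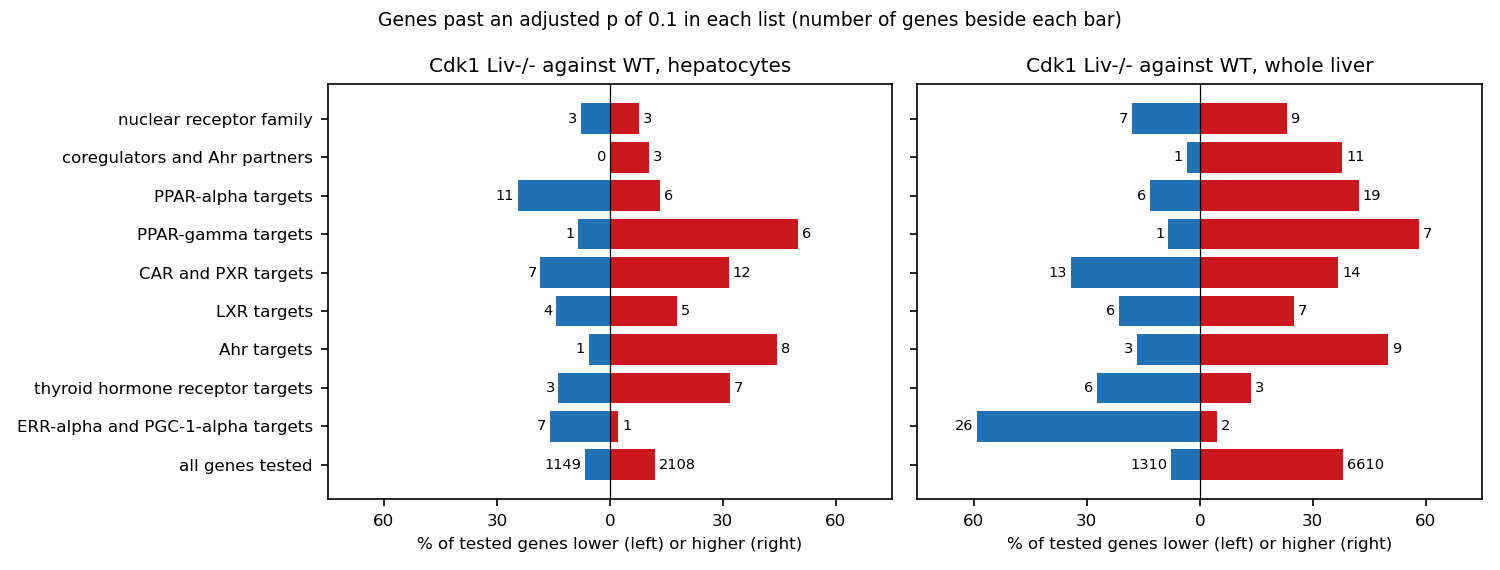
Percent of the tested genes of each list, and of all tested genes, that were higher or lower in Cdk1 Liv-/- than in WT hepatocytes and whole liver at an adjusted p of at most 0.1. Of the receptor, coregulator and target lists drawn, targets of ERR-alpha and PGC-1-alpha in whole liver have the largest share of lower genes.

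Genes with the most similar profile over the 12 libraries were found by the root mean square difference of centred log2(FPKM + 0.5) values among 12281 genes with a mean of at least 1 FPKM. The nearest to Ppara was Sned1, at a difference of 0.55, while the SD of Ppara itself was 0.93. The nearest to Pparg was Ppp1r14b, at 0.12 with an SD of Pparg of 0.36. The others, with the SD of the gene of the set second, were Cebpz for Nr1i2 (0.10 and 0.20), AI317395 for Nr1i3 (0.16 and 0.34), C87436 for Nr1h3 (0.06 and 0.08), Tmem201 for Rxra (0.07 and 0.12), Cfap36 for Esrra (0.09 and 0.18), Slc12a7 for Thrb (0.08 and 0.27), Glce for Ahr (0.11 and 0.31) and Megf9 for Ppargc1a (0.26 and 0.53). These were picked as the extreme of many genes and are a description only.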

How the data were processed

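RNA of 12 libraries, 3 in each of 4 groups of mice at postnatal day 14, was sequenced with a stranded polyA kit in single reads of 75 bases. FPKM values were deposited by the authors, who aligned reads to mm10 with STAR (version not given) and made the values with RSEM 1.2.31, with no scaling between libraries. The annotation release is not given in the sources used here. Values have 2 decimals.

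log2(FPKM + 0.5) values were fitted with limma 3.58.1 in R 4.3.3 (eBayes with trend, two-sided). A comparison of 2 groups used its 6 libraries and the interaction all 12. p-values were adjusted by Benjamini-Hochberg over the 17386 of 47069 genes with a mean of at least 0.1 FPKM, and genes with an adjusted p of at most 0.1 passed. Intervals cover 95%. A gene with few reads has a wide counting error, and the reads behind 1 FPKM were estimated from genes with 1 transcript of 300 to 900 bases at up to 0.5 FPKM. The script was tested on simulated data, where the share of false calls was mostly above the nominal share, so calls close to the threshold are less certain than their adjusted p states. A first limit on the share of changed genes found was missed there and replaced.

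The members and lists were chosen with earlier results of these data known. Named genes are all 10 members and Cdk1. Of each list of relatives or targets and in each genotype comparison, the 2 genes with the highest and the 2 with the lowest fold change among those that passed are named. Also named are the nearest profile of each member, the most abundant marker of each cell type over the 12 libraries, Xist and 4 Y-linked genes. Positions are from GENCODE M21 and promoters from RefSeq, both on GRCm38.

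Alternatives were pseudocounts of 0.1 and 1, no filter, a filter at 1 FPKM, median-ratio size factors, equal sums, eBayes without trend, an added fold change limit of 1 on the log2 scale, an adjusted p of 0.05, each library left out, the replicate number as a block, 1 fit of all 12 libraries, and a two-sample test with equal variances and q-values on the same log2 values. The study's methods also name a two-sample test and q-values but not whether logs were taken or how q-values were set, so this is not a repeat of its analysis. Leaving out both libraries that stood apart was chosen after seeing the data. Protein sequences were not used here. Not every gene that this naming rule takes is reported here.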

Additional observations from a re-analysis of the deposited data

Results flagged for a closer look

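The change of Pparg with genotype differed between the compartments by the interaction test in limma. The log2 fold change was -0.21 in hepatocytes and 0.62 in whole liver, a difference of -0.83 (standard error 0.23, adjusted p = 0.0734). All 3 Cdk1 Liv-/- libraries were below all WT libraries in hepatocytes and above them in whole liver. The difference was -0.83 (adjusted p = 0.175) without both libraries that stood apart, a setting chosen after seeing the data, and -0.70 (adjusted p = 0.120) with size factors. The adjusted p ranged from 0.0579 to 0.217 over all alternatives.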

How the results depend on the processing

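In hepatocytes the counts of 0 higher and 0 lower members by limma were the same under all 18 alternatives. In whole liver 2 members were higher, and this became 0 with no filter, with size factors, with the fold change limit and at an adjusted p of 0.05, became 1 without trend and in 1 fit of all 12 libraries, and ranged from 0 to 2 with 1 library left out. The 1 lower member became 4 with size factors, 0 in 1 fit of all 12 libraries and 2 in the two-sample test, where Nr1h3 passed too. The 0 members between WT hepatocytes and WT whole liver became 1 in the two-sample test and 0 to 2 with 1 library left out. The 1 member with an interaction became 0 with no filter, with the fold change limit, at an adjusted p of 0.05 and without both libraries that stood apart, and 0 to 1 with 1 library left out. With size factors it was Nr1h3 (0.34, adjusted p = 0.0669) and not Pparg. With no filter more genes are adjusted for, the stricter limits ask for more by construction, and the cause of the other moves was not tested.

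Size factors turned the sign of Nr1i2 in whole liver (-0.015), the 1 reversal of a change that had passed. They also turned Esrra in hepatocytes (-0.0053) and, between WT compartments, Pparg (0.11) and Rxra (0.080). Equal sums turned Thrb in whole liver (0.012), Pparg between compartments (0.022) and Nr1i2 in the interaction (-0.0014), and leaving out both libraries that stood apart turned the interaction of Thrb (-0.11). With 1 library left out, hepatocyte values spanned 0 for Ppara (-1.19 to 0.093), Nr1i3 (-0.069 to 0.29), Esrra (-0.024 to 0.16), Thrb (-0.075 to 0.35) and Ppargc1a (-0.0022 to 0.18). Whole liver values spanned 0 for Nr1i3 (-0.35 to 0.22), Thrb (-0.084 to 0.039) and Ahr (-0.15 to 0.050), and compartment values for Pparg (-0.051 to 0.051) and Nr1i3 (-0.088 to 0.17). Interaction values spanned 0 for Nr1i2 (-0.14 to 0.11), Nr1i3 (-0.15 to 0.44), Thrb (-0.055 to 0.37) and Ahr (-0.44 to 0.043). The cause was not tested. Of 2071 values of single genes and list counts, 1693 kept their direction and side of the threshold or stayed within 1.5 times the count, 33 were weaker, 8 stronger, 305 moved and 32 reversed.

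The replicate number as a block left 1 member higher in whole liver, where Nr1i2 did not pass (adjusted p = 0.122), and 0 with an interaction, where Pparg did not pass (adjusted p = 0.105), and changed no other call among the members. Libraries with the same number did not deviate together, with correlations from -0.32 to 0.24 over 18 pairs, of which 2 were above 0.1. The block gave 1048 higher and 408 lower genes in hepatocytes, 5567 and 1042 in whole liver, 0 between compartments and 201 and 455 in the interaction.

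Counts over all genes moved by more than 1.5 times in at least 1 direction elsewhere too. In hepatocytes, 2108 higher and 1149 lower genes became 892 and 315 with no filter, 730 and 377 with the fold change limit, 1303 and 527 at an adjusted p of 0.05, 3434 and 2072 in 1 fit of all 12 libraries, and 1157 to 1622 and 402 to 1224 with 1 library left out. In whole liver, 6610 and 1310 became 4302 and 713 with no filter, 798 and 174 with the fold change limit, 8613 and 2014 in the two-sample test, 3106 and 2849 with size factors, and 4509 and 859 without WT replicate 1. Between WT compartments, 18 and 247 became 413 and 2656 without WT hepatocyte replicate 3, 1 and 0 without replicate 1, 3 and 4 without replicate 2, 1 to 8 and 5 to 57 without 1 WT whole liver library, 39 and 471 in 1 fit of all 12 libraries, 30 and 313 in the two-sample test, and 2 to 16 and 30 to 171 with no filter, the filter at 1 FPKM, either scaling, no trend or the stricter limits. In the interaction, 409 and 1303 became 79 and 222 with no filter, 548 and 492 with size factors, 140 and 548 with the fold change limit, 95 and 177 at an adjusted p of 0.05, 117 and 335 without both libraries that stood apart, 35 and 43 without WT whole liver replicate 1, and 113 to 487 and 266 to 2232 without 1 other library.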
